A study of Mus musculus with 5 samples.

Results

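The G2 and mitosis genes described here are 46 mouse genes whose products take a cell from the end of DNA replication through chromosome segregation to cytokinesis. They were chosen by gene symbol from the 32285 genes of the deposited tables, with no cut on their values. Earlier results of these data were known when the choice was made. All 46 were found, each with at least 292 UMIs (unique molecular identifiers, which count captured RNA molecules). The data are droplet single-cell RNA-seq (10x 3′ chemistry) of spleen cells from C57/BL6 mice, taken 48 hours after an intravenous infusion. Collagenase D and DNAse I served to digest the spleens, CD45+ cells and dendritic cells were enriched magnetically in separate steps, and both fractions were pooled 1:1. The study set infused allogeneic cells beside isogeneic ones, given live or apoptotic. 1 library was made for each of 5 groups, namely live allogeneic (LA; live splenic cells of Balbc mice), live isogeneic (LI; live splenic cells of B6 mice), apoptotic allogeneic (AA; apoptotic Balbc splenic cells), apoptotic isogeneic (AI; apoptotic B6 splenic cells) and saline (Saline IV infusion, no cells). The sources used here do not say how many mice went into a library, and gene counts alone do not separate infused cells from cells of the host.

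Entry into mitosis is driven by CDK1 bound to the A- and B-type cyclins, which set off chromosome condensation, spindle assembly and the attachment of kinetochores to microtubules. The spindle checkpoint holds the anaphase-promoting complex (APC/C) inactive until every chromosome is attached, after which CDC20-bound APC/C marks the cyclins and securin for destruction and the cell divides. RNAs of these genes are repressed in resting cells through the DREAM complex and peak in G2 and M, when the MuvB core of that complex works with B-MYB and FOXM1. In the mouse spleen, erythroid precursors of the red pulp divide throughout adult life, and conventional dendritic cells keep a dividing fraction in the tissue, whereas most lymphocytes rest until an antigen activates them.

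A feature the selection did not use is the promoter sequence. The sequence by which MuvB reaches these promoters is the CHR element, searched here as TTTGAA or TTCGAA on either strand, and the CCAAT box (CCAAT on either strand) is the site of the factor NF-Y. The motifs do not overlap in letters. Of the 46 members, 40 were matched by symbol to RefSeq promoters (GRCm38.p6); Ccna2, Aurkb, Smc4, Cdca2, Tpx2 and Dlgap5 were not. In windows from 250 bases before to 50 bases after the annotated start, a CHR match stood in 32 of the members' 42 promoters (76.2%), against 19.2% of all 32851 promoters. A CCAAT box stood in 34 of the 42 (81.0%), against 37.4% of all promoters, and both stood in 28 (66.7%), against 7.52%. In the 44 DNA replication genes of S phase, used below as the list for the preceding phase, 33 had a promoter, and both motifs stood in 4 of those 33 genes, against 27 of the 40 members. The pair was not particular to the members. In the list of further mitotic genes used below, 30 had a promoter, and both motifs stood in 16 of those 30 genes (53.3%). The CHR share depended on the bases after the start: in the 250 bases before it alone, 40.5% of the members' promoters and 17.1% of all promoters had a match. In the 120 bases before the earlier of 2 annotated starts, 10 of 37 members had a CHR match and 9 of 37 had both elements. Sequences below run 5′ to 3′ on the gene's strand, with CHR matches and CCAAT boxes of either strand in capitals. Of the 9 members with both, Top2a, Kif11, Cdk1 and Cdc20 are shown, as those with the most UMIs among the core members defined below. They encode topoisomerase IIα (Top2a, chr11:99024190-99024309, minus strand), the spindle motor Eg5 (Kif11, chr19:37376262-37376381, plus strand), the mitotic kinase CDK1 (Cdk1, chr10:69352939-69353058, minus strand) and the APC/C activator CDC20 (Cdc20, chr4:118437353-118437472, minus strand).
Top2a: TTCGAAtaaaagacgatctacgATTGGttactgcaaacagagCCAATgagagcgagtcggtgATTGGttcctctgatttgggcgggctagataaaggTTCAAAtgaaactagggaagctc
Kif11: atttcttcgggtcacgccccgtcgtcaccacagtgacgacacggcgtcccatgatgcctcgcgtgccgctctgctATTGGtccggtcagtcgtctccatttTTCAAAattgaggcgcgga
Cdk1: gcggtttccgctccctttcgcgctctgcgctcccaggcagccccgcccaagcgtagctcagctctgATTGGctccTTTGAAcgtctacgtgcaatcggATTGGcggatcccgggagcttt
Cdc20: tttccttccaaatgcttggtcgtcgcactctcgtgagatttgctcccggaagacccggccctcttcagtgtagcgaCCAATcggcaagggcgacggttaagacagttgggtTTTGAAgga
In Cdk1 and Kif11 a CCAAT box (ATTGG on the strand shown) lies upstream of the CHR match, and in Cdc20 the CHR match begins 9 bases before the start. A match describes letters and is not evidence of binding.

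After filtering (at least 1000 UMIs and 500 genes per barcode, at most 10% mitochondrial UMIs, predicted doublets removed), 16136 cells remained: 1185 in LA, 3680 in LI, 2114 in AA, 6263 in AI and 2894 in saline. Median UMIs per cell were 4974 in LA, 3880 in LI, 4465.5 in AA, 2267 in AI and 3420.5 in saline, so AI was the shallowest library. LI stood apart in 2 ways. Gm42418, a gene that overlaps ribosomal RNA, had 55777 CPM (the usual depth-scaled UMI count) in LI cDC2-like cells, against 11644 in LA, 18272 in AA, 14206 in AI and 13512 in saline, and the LI erythroid-like cells had a median of 3683.5 UMIs, against 25908 to 43640 in the other libraries. Each library shared between 4 and 20 cell barcodes with the others, against 2.61 to 9.10 by chance. Cells were clustered without 303 cell cycle genes, the members among them, so that dividing cells stayed with their own cell type, and clusters were named from fixed marker lists. With 1 library per group there is no test between groups. Intervals below are exact 95% intervals for counting error only, and a 1.5-fold ratio is a rule of size. UMI counts of 3′ tags do not scale with gene length, so CPM can be read across genes as captured molecules, subject to how well each 3′ end is captured.

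The 46 members took 271203 UMIs, 3156 CPM of all kept cells, from 292 UMIs of Gtse1, a microtubule-associated protein of G2, to 71190 of Hmgb2, a chromatin protein. Erythroid-like cells, 633 of the 16136, held 52.3% of the members' UMIs, between 22.5 and 69.1% member by member. They had the highest level of 35 members. Of the other 11, 5 were highest in platelet- or megakaryocyte-like cells (Ncapd2, Cdca2, Ckap2l, Kif20b and Gtse1) and 3 in an unnamed cluster of 105 shallow cells (Aurkb, Ndc80 and Nusap1). The other 3 were single exceptions: the condensin subunit Smc4 in T cell-like cells, the cytokinesis regulator Racgap1 in NK cell-like cells, and the midzone kinesin Kif23 in neutrophil-like cells.

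**Figure D1:**
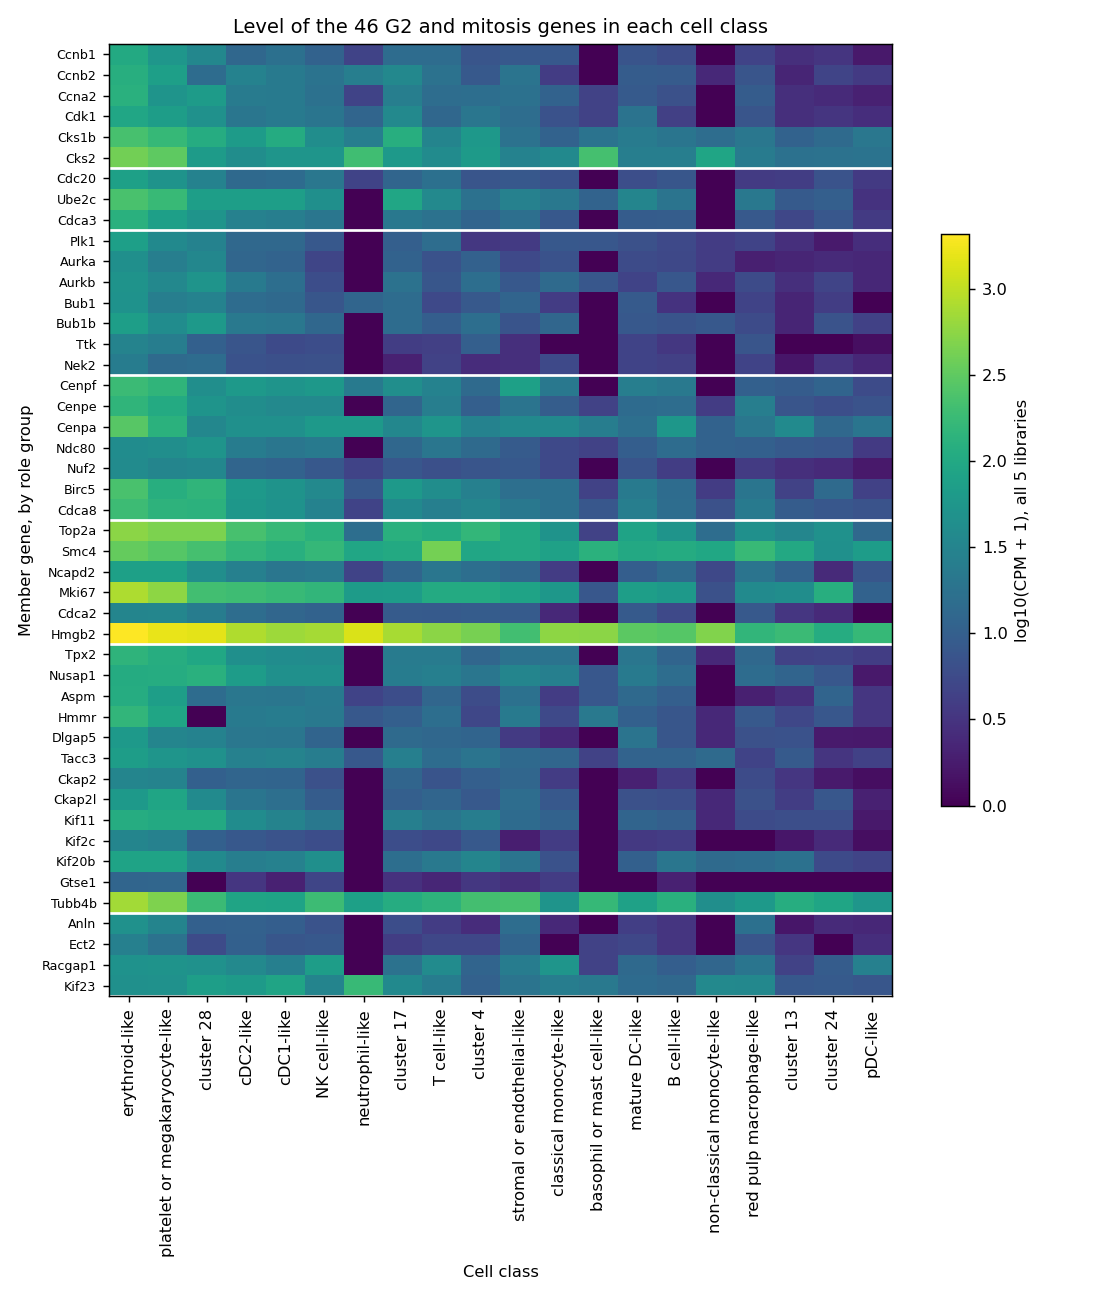
Level of each of the 46 members in each of 20 cell classes, summed over the 5 libraries, as log10 of CPM + 1 (colour), with members down the page by role and classes across it. The erythroid-like column holds the highest level of 35 members and the platelet- or megakaryocyte-like column that of 5, whereas Hmgb2, Smc4 and Tubb4b have a level in every class.

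To compare cells of unequal depth, each cell was thinned to 1000 UMIs and called G2/M-high when at least 2 different core members had a UMI. The core is the 46 without Hmgb2, Tubb4b, Cks1b, Cks2, Smc4, Ncapd2, Tacc3 and Ckap2, which resting cells are also known to express. No cell was too shallow for this. By this measure 1108 of 16136 cells (6.87%) were G2/M-high, and they held 87.1% of the core UMIs. Of these 1108 cells, 277 had exactly 2 core members, the least that the call allows. In neutrophil-like cells, which do not divide once mature, the share was 0 of 121 cells, which allows up to 2.48%, at a median of 1680 UMIs, and in pDC-like cells it was 6 of 473 (1.27%) at a median of 5936 UMIs. Barcodes with under 100 UMIs, which hold mostly free RNA, also carried core members, at 782 to 1630 CPM in the 4 libraries that have such barcodes, against 69.8 to 265 CPM in the pDC-like cells of all 5.

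The members differed in how much of their signal lay outside the G2/M-high cells, which the core members define. As a description of that choice, outside the erythroid-like cells 53.1% of G2/M-high cells and 0.785% of the other 14902 cells had a thinned UMI of Top2a. For the proliferation marker Mki67 the shares were 51.4% and 0.658%. The 8 members left out of the core, which the definition did not use, differed from one another. Cks1b, a small subunit of cyclin-dependent kinases, was found in 23.0% of G2/M-high cells and 1.15% of the others, and Ckap2, a spindle protein, in 4.99% and 0.101%. Ckap2, Tacc3 (0.584%) and Ncapd2 (0.644%) were found in fewer of the other cells than the core members Cenpa (2.85%) and Kif20b (1.05%). The core was thus not in every case the set most confined to G2/M-high cells. Hmgb2 was found in 78.4% and 17.8%, Smc4 in 34.1% and 11.7%, and the tubulin Tubb4b in 32.3% and 8.58%. Of the cells with a thinned UMI, 15.1% were G2/M-high for Hmgb2, 10.5% for Smc4, 13.2% for Tubb4b and 44.5% for Cks1b. Most cells with any of these 4 RNAs were thus not G2/M-high. Core members varied as well, from 25.3% for Cenpa to 95.7% for Kif2c, with 73.2% for Top2a and 75.9% for Mki67. In the single exceptions named above the same division was visible: outside G2/M-high cells, Smc4 had 393 CPM in T cell-like cells, against 94.8 in B cell-like and 85.6 in cDC2-like cells, and Racgap1 had 41.6 CPM in NK cell-like and 43.0 in classical monocyte-like cells. Kif23 had 172 CPM in neutrophil-like cells, from 47 UMIs in 16.5% of the 121 cells after thinning, with 79.6 CPM in LA, 212 in LI, 179 in AA, 128 in AI and 260 in saline. Racgap1 and Ect2, whose proteins work with that of Kif23 at the central spindle, had no UMI in those cells.

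Erythroid-like cells were the most uniform carriers of the module. They were G2/M-high in 42 of 49 LA cells (85.7%, interval 72.8 to 94.1), 259 of 318 LI cells (81.4%, 76.7 to 85.6), 80 of 104 AA cells (76.9%, 67.6 to 84.6), 63 of 83 AI cells (75.9%, 65.3 to 84.6) and 63 of 79 saline cells (79.7%, 69.2 to 88.0). All 5 intervals overlap. The summed level of the 46 members was 9435 CPM in LA, 9139 in LI, 8316 in AA, 8096 in AI and 8066 in saline, which gives 1.03-fold (1.02 to 1.05) for LA over LI and 1.03-fold (1.01 to 1.05) for AA over AI. 42 of the 46 members varied by less than 2-fold over the 5 libraries, a count given without a share over all genes. Within the class, the cluster led by haemoglobin genes carried more than the cluster led by Car1, with 11866 to 13726 CPM against 6982 to 8440 CPM over the libraries. The LI cells of the class differed in quality. At Leiden resolution 2, 163 of the 214 cells of a shallow erythroid-like cluster (median 1990 UMIs) came from LI. Gm42418 had 26184 CPM in LI erythroid-like cells, against 3297 to 5324 in the other libraries. The part of this in the LI values here and below was not tested.

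At the level of single members, none of the 46 was 1.5-fold higher in LA than in LI erythroid-like cells, and 2 were 1.5-fold lower, against a background of 0.867% of genes higher and 2.62% lower. These were the centrosomal kinase Nek2, at 17.4 CPM in LA, 35.1 in LI, 16.8 in AA, 19.4 in AI and 17.6 in saline (LA over LI 0.496-fold, interval 0.335 to 0.715), and Aurkb, the kinase of the chromosomal passenger complex, at 38.9 CPM in LA, 64.6 in LI, 37.9 in AA, 36.8 in AI and 46.2 in saline (0.603-fold, 0.465 to 0.773). For both, LI was the library that differed from the other 4. Gtse1 was at 10.8 CPM in LA, 16.5 in LI, 7.73 in AA, 8.23 in AI and 5.09 in saline, and Cdk1 at 106 CPM in LA, 125 in LI, 55.4 in AA, 66.8 in AI and 66.1 in saline. Cdk1 was thus about level between the live libraries and higher in each of them than in the other 3. At the other end, Dlgap5, a protein that stabilises the fibres between spindle and kinetochore, had 90.2 CPM in LA, 61.1 in LI, 54.6 in AA, 50.3 in AI and 43.4 in saline, 1.48-fold (1.23 to 1.77) for LA over LI. The kinetochore protein Nuf2 had 55.8 CPM in LA, 39.3 in LI, 33.3 in AA, 40.7 in AI and 33.7 in saline, and the checkpoint kinase Bub1 had 68.1 CPM in LA, 50.3 in LI, 40 in AA, 38.7 in AI and 43.4 in saline. In both, LA was the highest library and the others were close to one another. Tubb4b had 830 CPM in LA, 623 in LI, 787 in AA, 743 in AI and 777 in saline, so here LI was the one that lay low, whereas Anln had 45.1 CPM in LA, 57.4 in LI, 40.2 in AA, 36.3 in AI and 38.7 in saline, with LI high.

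For AA over AI in erythroid-like cells, 0 of 46 members passed 1.5-fold in either direction, against 0.452% of genes higher and 0.542% lower. The extremes were the checkpoint kinase Ttk, with 30.7 CPM in LA, 32.1 in LI, 29.6 in AA, 22.3 in AI and 27.0 in saline (1.33-fold), and Plk1, with 93.2 CPM in LA, 80.0 in LI, 54.9 in AA, 76.0 in AI and 66.5 in saline (0.722-fold, 0.584 to 0.895). Ect2, an exchange factor that acts in cytokinesis, had 35.3 CPM in LA, 29.0 in LI, 25.3 in AA, 19.8 in AI and 24.3 in saline. Ube2c had 285 CPM in LA, 223 in LI, 202 in AA, 268 in AI and 231 in saline (0.756-fold, 0.676 to 0.845), in an order unlike that of Cdca3, which was level at 132 CPM in LA, 120 in LI, 128 in AA, 123 in AI and 136 in saline. Cks1b had 250 CPM in LA, 237 in LI, 193 in AA, 233 in AI and 213 in saline, and Cdca2, a phosphatase-targeting protein of anaphase chromatin, had 33.8 CPM in LA, 30.8 in LI, 25.9 in AA, 32.0 in AI and 36.8 in saline. Nusap1 had 129 CPM in LA, 97.3 in LI, 114 in AA, 94.9 in AI and 117 in saline, and Smc4 had 340 CPM in LA, 391 in LI, 313 in AA, 276 in AI and 330 in saline. Ttk, Plk1, Ect2, Cks1b and Smc4 were higher in both live libraries than in the other 3, as were 24 of all 46 members in erythroid-like cells, and Ube2c, Cdca3, Cdca2 and Nusap1 were not. LA was the highest library for 26 of the 46, LI for 15, AI for 1 and saline for 4. No share over all genes stands beside these counts of library order, so they describe the members only. The most abundant ones were flat: Mki67 lay between 735 and 873 CPM, Top2a between 500 and 633 CPM, and Hmgb2 between 1638 and 2286 CPM over the 5 libraries. Live cells set beside apoptotic cells of the same source gave 6 of 46 members higher in LA than in AA (background 1.42%; 1.13-fold) and 3 of 46 higher in LI than in AI (3.27%; 1.13-fold), and against saline 4 were higher in LA (2.33%; 1.17-fold) and 3 in LI (3.73%; 1.13-fold).

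The largest pool outside the erythroid-like cells was among cDC2-like cells, type 2 conventional dendritic cells that present antigen mainly to CD4 T cells. Their G2/M-high share was 29 of 139 cells in LA (20.9%, interval 14.4 to 28.6), 45 of 384 in LI (11.7%, 8.68 to 15.4), 22 of 363 in AA (6.06%, 3.84 to 9.03), 21 of 446 in AI (4.71%, 2.94 to 7.11) and 33 of 455 in saline (7.25%, 5.04 to 10.0). LA was highest and LI second. The LA interval overlapped that of LI and lay above those of AA, AI and saline, and the LI interval overlapped those of AA and saline. Over 10 random thinnings the LA share ran from 20.1 to 23.0% and the LI share from 9.38 to 11.7%, and both stayed above the ranges of the other 3 libraries, whose highest value was 8.57%. Without thinning the shares were 46% in LA, 34.6% in LI, 20.9% in AA, 12.6% in AI and 21.8% in saline, with median depths of 9510 UMIs in LA, 7574.5 in LI, 6919 in AA, 4038 in AI and 5374 in saline. When the cell cycle genes were kept in the clustering, the cDC2-like shares were 7.26% in LA (9 of 124 cells) and 4.62% in LI (18 of 390). That clustering also formed a cluster of 145 cells with Nusap1 and Pclaf among its leading genes. Its best-matched marker list was cDC2, but it was named stromal or endothelial and so was not counted as cDC2-like. It held 28 cells in LA, 49 in LI, 22 in AA, 21 in AI and 25 in saline. Its part in the lower shares was not tested.

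**Figure D2:**
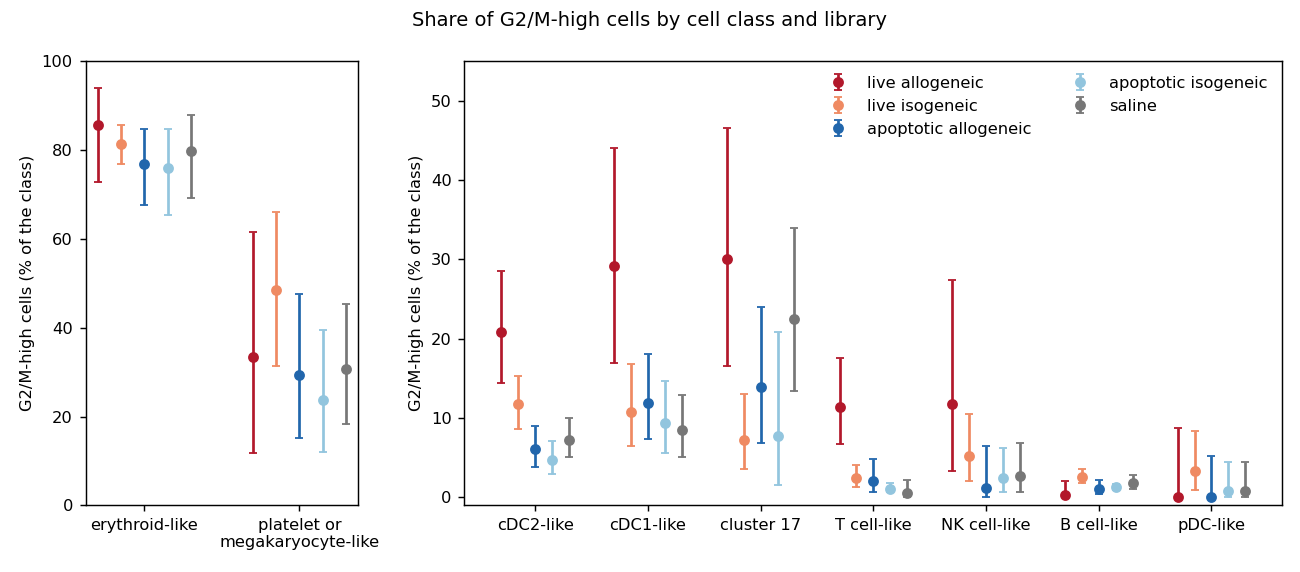
Share of G2/M-high cells (%, after thinning each cell to 1000 UMIs) in 9 cell classes, one point per library with its exact 95% interval for counting error, libraries in the order live allogeneic, live isogeneic, apoptotic allogeneic, apoptotic isogeneic and saline. The live allogeneic point is the highest in cDC2-like (20.9%), cDC1-like (29.2%), T cell-like (11.4%) and NK cell-like cells (11.8%) and in cluster 17, and the lowest in B cell-like cells (0.368%). Among these classes its interval is clear of all the others in T cell-like cells and overlaps that of at least 1 other library in the rest.

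Summed over the class, the 46 members had 5560 CPM in LA cDC2-like cells, 3107 in LI, 1818 in AA, 1601 in AI and 1952 in saline. LA over LI was 1.79-fold (1.74 to 1.84) and AA over AI was 1.14-fold (1.09 to 1.19). In sums over a class, more dividing cells and more of these RNAs per dividing cell cannot be told apart. Of 45 measured members, those with at least 20 UMIs in both sums together, 32 were at least 1.5-fold higher in LA than in LI and 0 lower, against a background of 5.48% of genes higher and 3.7% lower. The count was 6 with cycle genes kept in the clustering, 10 with each cell thinned to 1000 UMIs and 10 at 2-fold. Thinning leaves fewer members with the 20 UMIs needed, so its count is not out of 45. The background shares hold for the main settings, and none is given for these alternatives. The median log2 ratio was 0.73 over the members and -0.03 over all genes. For AA over AI, 1 of 43 measured members was higher and 0 lower, against 0.925% and 0.787%, with medians of 0.13 and 0.01. LA was the highest library for 45 of the 46 members, the exception being Nek2 (10.3 CPM in LA, 10.8 in LI), and for 41 members both live libraries lay above the other 3. No share over all genes stands beside these counts of library order. They therefore do not separate the members from a shift shared by other genes of a library.

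Live cells were also set beside apoptotic cells of the same source. In cDC2-like cells 45 of 45 members were higher in LA than in AA (background 6.84%), with a summed fold of 3.06 (2.95 to 3.17). 27 of 45 were higher in LI than in AI (background 5.15%), with 1.94-fold (1.86 to 2.02). The comparisons with saline share that 1 library: 42 of 45 members were higher in LA (background 7.45%; 2.85-fold, 2.75 to 2.95) and 15 of 45 in LI (3.5%; 1.59-fold). Against the same saline library, 0 of 43 were higher and 2 lower in AA (0.737% and 0.56%; 0.931-fold), and 0 of 43 higher and 8 lower in AI (0.628% and 0.862%; 0.820-fold).

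By role, the APC/C group differed most between the live libraries in cDC2-like cells. Its 3 members summed to 343 CPM in LA, 92.8 in LI, 59.3 in AA, 55.5 in AI and 84.4 in saline, 3.70-fold (3.19 to 4.29) for LA over LI. Ube2c (chr2:164769898-164778822, plus strand, mm10), the E2 ubiquitin-conjugating enzyme of the APC/C, had 235 CPM in LA, 54.1 in LI, 37.2 in AA, 37.5 in AI and 51.0 in saline, 4.34-fold (3.60 to 5.24) for LA over LI. Cdc20 had 40.1 CPM in LA, 10.2 in LI, 6.20 in AA, 6.16 in AI and 9.56 in saline, 3.94-fold (2.52 to 6.28). Both lay far above the other 4 libraries in LA alone. Cdca3, part of the ligase that degrades the mitotic inhibitor WEE1, had 68.5 CPM in LA, 28.5 in LI, 15.9 in AA, 11.8 in AI and 23.9 in saline.

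The cyclin and CDK1 group summed to 453 CPM in LA, 201 in LI, 119 in AA, 104 in AI and 147 in saline (LA over LI 2.25-fold), and 5 of its 6 members were 1.5-fold higher in LA than in LI. Ccnb2, a B-type cyclin, had 76.9 CPM in LA, 22.0 in LI, 15.9 in AA, 22.6 in AI and 24.7 in saline (3.50-fold, 2.57 to 4.79), and Ccnb1 followed the same order at the top with 31.7 CPM in LA and 8.86 in LI. For both B-type cyclins LI was close to saline. Cdk1 had 54.3 CPM in LA, 28.9 in LI, 8.53 in AA, 5.13 in AI and 5.98 in saline, so that LI was well above saline for the kinase, though not for its B-type cyclins. The A-type cyclin Ccna2, which already acts in S phase, had 45.3 CPM in LA and 29.2 in LI. The CDK subunits Cks1b and Cks2 had 156 and 89.2 CPM in LA, 69.2 and 43.0 in LI, 45.4 and 27.1 in AA, 36.5 and 22.1 in AI, and 46.6 and 37.8 in saline.

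The kinetochore and centromere group summed to 708 CPM in LA, 317 in LI, 175 in AA, 172 in AI and 264 in saline (2.23-fold), with 6 of 7 members past 1.5-fold. Cenpa, the histone H3 variant that marks centromeres, had 111 CPM in LA, 38.1 in LI, 31.0 in AA, 23.6 in AI and 47.0 in saline (2.90-fold, 2.28 to 3.71). Birc5, survivin of the chromosomal passenger complex, had 144 CPM in LA, 69.2 in LI, 33.7 in AA, 39.5 in AI and 48.6 in saline. Cenpa in LI was thus below saline while Birc5 in LI was above it. The kinase and checkpoint group was less separated, at 207 CPM in LA, 124 in LI, 54.7 in AA, 48.3 in AI and 58.2 in saline (1.66-fold; 4 of 7 members). Its best-covered members were Bub1b, the checkpoint protein BUBR1, with 41.4 CPM in LA, 30.2 in LI, 12.4 in AA, 10.3 in AI and 14.7 in saline (LA over LI 1.37-fold, 0.98 to 1.91), and Plk1, a kinase of mitotic entry and exit, with 29.1 CPM in LA, 15.7 in LI, 6.20 in AA, 6.16 in AI and 8.37 in saline. The LA over LI interval of Bub1b includes 1.

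The spindle group summed to 853 CPM in LA, 417 in LI, 267 in AA, 251 in AI and 304 in saline (2.04-fold; 11 of 12 measured members, without Gtse1). Tubb4b had 177 CPM in LA, 69.9 in LI, 69.8 in AA, 72.9 in AI and 73.7 in saline (2.53-fold, 2.11 to 3.05): 4 libraries were level and LA alone stood out. Tpx2, which activates Aurora A on the spindle, had 85.3 CPM in LA, 44.3 in LI, 28.3 in AA, 33.4 in AI and 41.0 in saline, and Kif11 had 90.5 CPM in LA, 50.9 in LI, 26.0 in AA, 19.5 in AI and 26.3 in saline. Chromosome structure genes summed to 2787 CPM in LA, 1815 in LI, 1058 in AA, 907 in AI and 981 in saline (1.54-fold; 3 of 6), most of it Hmgb2, with 1593 CPM in LA, 1058 in LI, 598 in AA, 553 in AI and 535 in saline. Mki67 had 351 CPM in LA, 246 in LI, 146 in AA, 103 in AI and 149 in saline, and Top2a, whose promoter is shown above, had 515 CPM in LA, 257 in LI, 168 in AA, 125 in AI and 151 in saline. These genes followed the order LA, LI, then the other 3.

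The smallest ratios of LA to LI were spread over the roles. Nek2, of the kinase group, was level, as given above, and Bub1b lay among the 5 lowest of the 43 members with at least 50 UMIs, with Smc4, Anln, Racgap1 and Ncapd2. Smc4 had 242 CPM in LA, 205 in LI, 112 in AA, 99.6 in AI and 120 in saline (1.18-fold, 1.04 to 1.35), and Ncapd2, another condensin subunit, had 49.8 CPM in LA, 32.8 in LI, 22.5 in AA, 16.9 in AI and 18.3 in saline. The cytokinesis group summed to 209 CPM in LA, 140 in LI, 84.9 in AA, 63.7 in AI and 114 in saline (1.49-fold), and none of its 4 members passed 1.5-fold with the 10 CPM pseudocount. Within it, Racgap1 had 66.6 CPM in LA, 45.9 in LI, 20.6 in AA, 16.9 in AI and 33.1 in saline, Kif23 had 106 CPM in LA, 71.8 in LI, 52.3 in AA, 36.5 in AI and 62.1 in saline, and the actin-binding anillin (Anln) had 17.5 CPM in LA, 12.1 in LI, 6.59 in AA, 5.13 in AI and 8.76 in saline. LI was above AA, AI and saline for Smc4, Ncapd2, Racgap1, Kif23 and Anln.

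**Figure D3:**
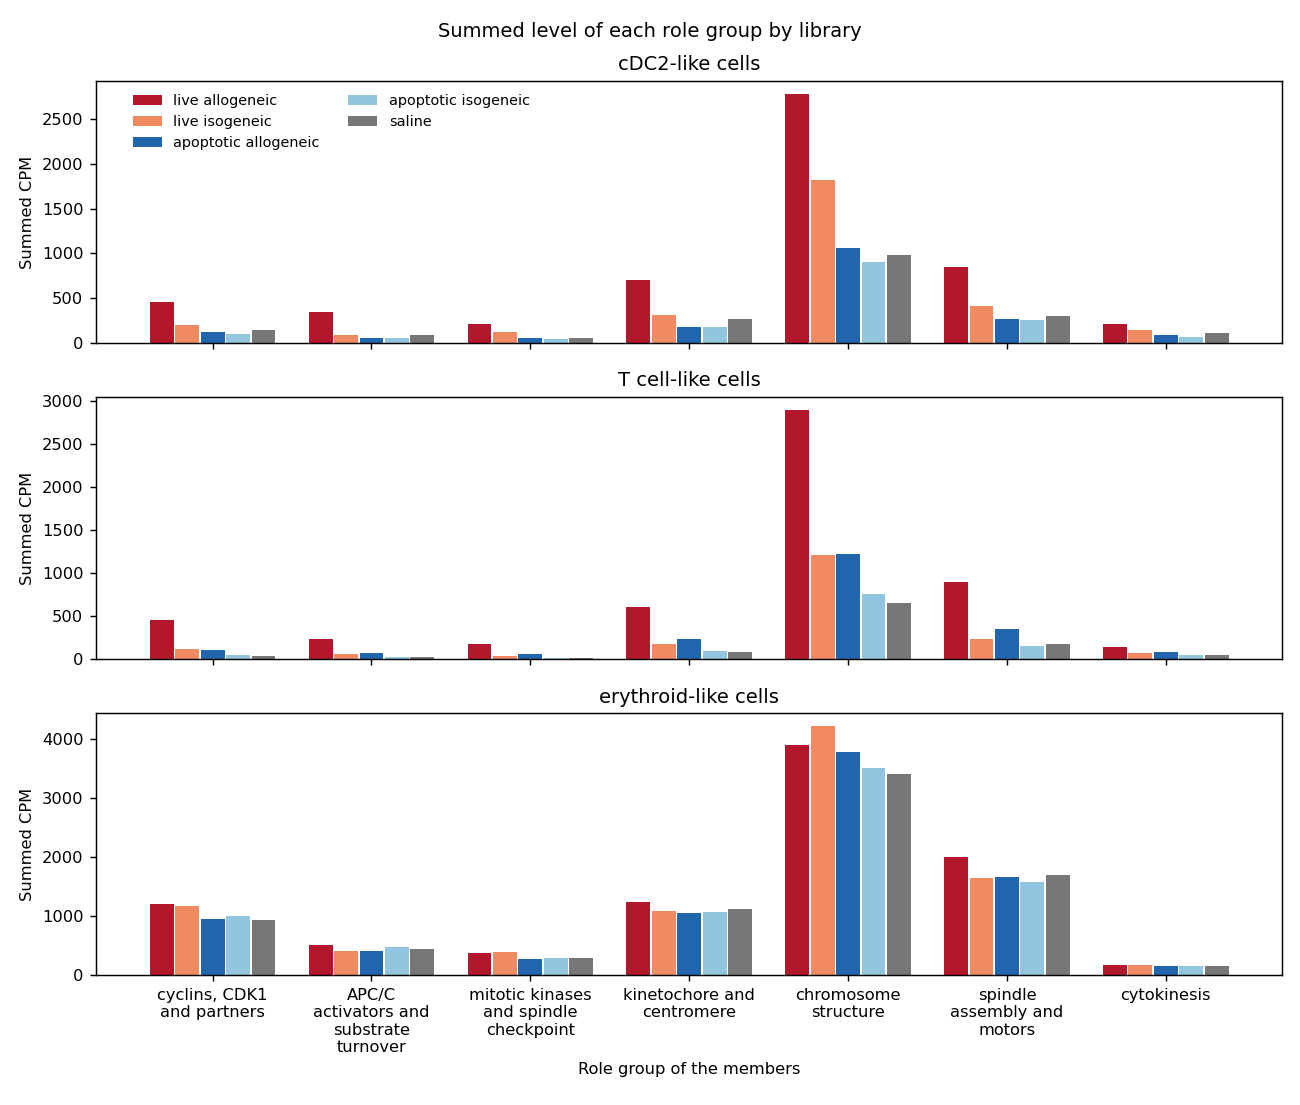
Summed CPM of the members of 7 role groups in cDC2-like, T cell-like and erythroid-like cells, one bar per library, in the order live allogeneic, live isogeneic, apoptotic allogeneic, apoptotic isogeneic and saline. The live allogeneic bar is the highest of every group in cDC2-like and T cell-like cells, whereas the bars of a group are near each other in erythroid-like cells.

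Between AA and AI in cDC2-like cells, the one member past 1.5-fold was Ckap2l, a spindle protein, with 38.8 CPM in LA, 19.7 in LI, 17.4 in AA, 5.65 in AI and 15.5 in saline (AA over AI 3.09-fold, 1.57 to 6.62). It was AI that lay below the saline value. Mki67, Kif23, Top2a and Cenpa were between 1.31- and 1.44-fold, and the lowest were Ccnb2 at 0.704-fold (0.448 to 1.10), Cdca8, of the passenger complex, at 114 CPM in LA, 60.7 in LI, 32.6 in AA, 42.1 in AI and 52.6 in saline (0.774-fold, 0.564 to 1.06), Tpx2 at 0.848-fold, Birc5 at 0.853-fold and Tubb4b at 0.957-fold. All 5 of the lowest have intervals that include 1.

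The cDC2-like class was made of 2 clusters, and LA was above LI in each. In the cluster led by Ffar2 and Adam23 the G2/M-high share was 20 of 81 cells in LA (24.7%), 42 of 261 in LI (16.1%), 7.87% in AA, 6.54% in AI and 7.74% in saline, and the members' sum was 1.93-fold higher in LA than in LI. In the cluster led by Cd209a and Lyz2 the share was 9 of 58 in LA (15.5%), 3 of 123 in LI (2.44%), 1.04% in AA, 0% in AI and 5.88% in saline, and the sum 2.85-fold higher. LI was below saline in the Cd209a cluster and above it in the other. In LA the G2/M-high cDC2-like cells had a median of 17802 UMIs, against 8881.5 in the others, and held 94.1% of the core UMIs. Without the G2/M-high cells of each library, the sum was 1.23-fold higher in LA than in LI (1.14 to 1.34). The 29 G2/M-high LA cells carried cDC2 markers at 5063 CPM (17 of 18 detected), against 4714 CPM in the other 110. Their erythroid markers summed to 124 CPM, with 11 of 13 at 0, against 64.4 CPM in the others. Classical monocyte markers, across the whole class, summed to 7107 CPM in LA, 4368 in LI, 4418 in AA, 4284 in AI and 3661 in saline. Red pulp macrophage markers summed to 606 CPM in LA, 275 in LI, 290 in AA, 163 in AI and 208 in saline, and pDC markers to 871 CPM in LA, 502 in LI, 548 in AA, 565 in AI and 502 in saline. Of the 10 classical monocyte markers 2 were at 0 in LA, and of the 12 macrophage and 12 pDC markers 1 each. The classical monocyte list was also highest in LA in B cell-like cells (1625 CPM, against 902 to 1005 in the other libraries). The same held in T cell-like cells (838 against 603 to 683) and pDC-like cells (10007.5 against 5313 to 6349). It was not highest in LA in cDC1-like, erythroid-like or NK cell-like cells or in cluster 17. Whether cells of these types were present, and their part in the members' values, was not tested.

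The preceding phase did not show the same step between the live libraries. Of the 44 DNA replication genes, 2 were 1.5-fold higher in LA than in LI cDC2-like cells and 0 lower, with a summed fold of 1.13 (1.09 to 1.17), against 1.79 for the 46 members. A second list of 40 further mitotic genes, chosen by function and outside the 46, had 19 of 39 measured higher and 0 lower (1.59-fold). None of 18 measured cell cycle transcription factors, the E2F, RB and MuvB families, passed 1.5-fold in either direction. G1 cyclins and kinases had 1 gene higher of 8, and APC/C subunits 2 higher of 16. Cells with at least 2 replication genes after thinning were 34.5% in LA, 28.1% in LI, 24.8% in AA, 20.2% in AI and 20.7% in saline, and of the G2/M-high cells 22 of 29 in LA and 38 of 45 in LI were among them.

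**Figure D4:**
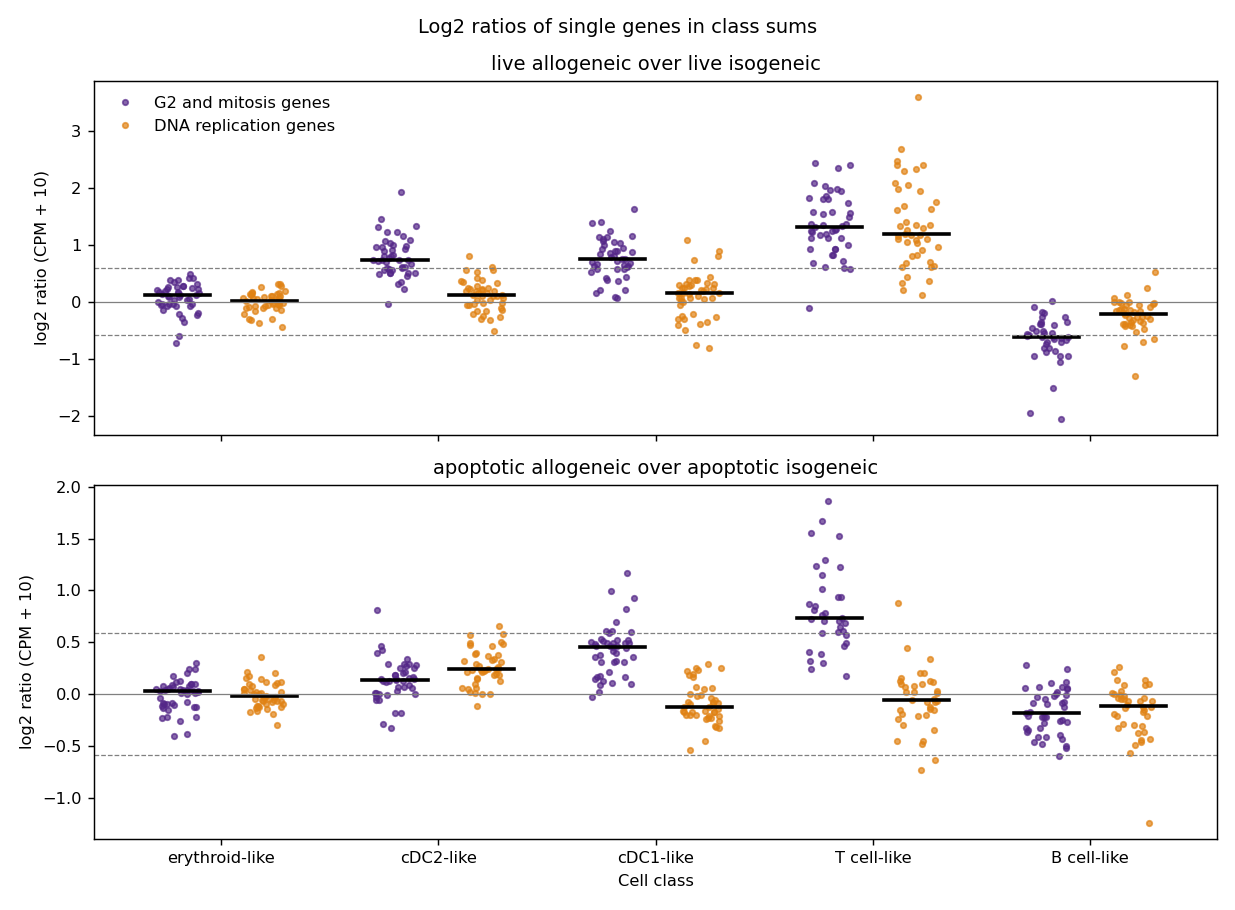
Log2 ratio of CPM + 10 for each member (purple) and each DNA replication gene (orange) in 5 cell classes, live allogeneic over live isogeneic above and apoptotic allogeneic over apoptotic isogeneic below; black lines are medians and dashed lines mark 1.5-fold. In the upper panel the median of the members lies above that of the replication genes in cDC2-like and cDC1-like cells, both medians lie above 0 in T cell-like cells, and the median of the members lies below 0 in B cell-like cells (-0.61).

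In cDC1-like cells, which cross-present antigen to CD8 T cells, the pattern in the live libraries was of similar size. The G2/M-high share was 14 of 48 cells in LA (29.2%, interval 17 to 44.1), 17 of 157 in LI (10.8%, 6.44 to 16.8), 19 of 159 in AA (11.9%, 7.35 to 18.0), 17 of 180 in AI (9.44%, 5.60 to 14.7) and 19 of 225 in saline (8.44%, 5.16 to 12.9). LA had the highest share, with an interval that overlapped that of AA, and the other 4 intervals overlap one another. Of 44 measured members 31 were higher in LA than in LI and 0 lower (background 3.3% and 3.03%), with a summed level of 3800 CPM in LA, 2146 in LI, 2591 in AA, 1788 in AI and 2019 in saline and 1.77-fold (1.70 to 1.84) for LA over LI. Ube2c had 156 CPM in LA, 43.9 in LI, 73.0 in AA, 47.6 in AI and 73.5 in saline, and the APC/C group again had the largest fold of the 7 (3.12). For AA over AI, 9 of 44 members were higher and 0 lower (background 0.943% and 0.978%), at 1.45-fold (1.39 to 1.51), with Nusap1, a microtubule-bundling protein, at 61.6 CPM in AA, 25.9 in AI and 51.7 in saline. Top2a was highest in AA here, at 215 CPM, against 190 in LA, 143 in LI, 156 in AI and 143 in saline. The replication genes had 4 higher and 2 lower of 44 for LA over LI (1.11-fold) and none in either direction for AA over AI. Without the G2/M-high cells the members' fold for LA over LI was 1.04. 16 of 44 cDC1-like members were higher in LA than in AA (background 4.03%; 1.47-fold) and 1 of 43 in LI than in AI (2.98%; 1.20-fold). Against saline, 27 of 44 were higher in LA (4.86%; 1.88-fold), 4 of 44 in AA (1.09%; 1.28-fold), and 0 of 41 higher and 4 lower in AI (1.26% and 1.14%; 0.885-fold).

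T cell-like cells had the widest relative differences among the large classes. The G2/M-high share was 17 of 149 cells in LA (11.4%, interval 6.79 to 17.6), 13 of 543 in LI (2.39%, 1.28 to 4.06), 5 of 236 in AA (2.12%, 0.691 to 4.87), 15 of 1337 in AI (1.12%, 0.629 to 1.84) and 2 of 324 in saline (0.617%, 0.0748 to 2.21). LA did not overlap any other library. Over 10 random thinnings the LA share ran from 10.1 to 14.1% and the LI share from 2.58 to 3.50%, so the printed LI share lies just below its range. Unthinned, the shares were 24.8% in LA, 16.8% in LI, 11.9% in AA, 5.16% in AI and 6.48% in saline, at medians of 5772 UMIs in LA, 4394 in LI, 4256 in AA, 2583 in AI and 3380 in saline. The members summed to 5416 CPM in LA, 1890 in LI, 2110 in AA, 1130 in AI and 1016 in saline. For LA over LI, 43 of 45 measured members were higher and 0 lower (background 11.1% higher and 12.2% lower), at 2.87-fold (2.77 to 2.97), with a median log2 ratio of 1.31 over the members and -0.10 over all genes. With each cell thinned to 1000 UMIs, so that deep cells do not weigh more, the fold was 1.67, and 7 members could be measured, of which 3 were higher. No background share is given for the thinned cells. The 38 core members alone gave 4.14-fold (3.91 to 4.38). Gm42418 had 13460 CPM in LA T cell-like cells, 83659 in LI, 24416 in AA, 14930 in AI and 19878 in saline, and its part in the members' values was not tested.

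The T cell-like values by role were 2.00- to 5.01-fold for LA over LI in the 7 groups. Top2a had 411 CPM in LA, 68.0 in LI, 138 in AA, 40.1 in AI and 33.1 in saline, and Mki67 had 413 CPM in LA, 70.3 in LI, 139 in AA, 31.1 in AI and 26.2 in saline. Cdk1 had 58.3 CPM in LA, 6.18 in LI, 7.48 in AA, 3.16 in AI and 1.74 in saline. In each of these LA was highest, and AA lay above AI and saline. Ube2c had 132 CPM in LA, 29.0 in LI, 37.4 in AA, 11.3 in AI and 8.72 in saline, Plk1 had 54.1 CPM in LA, 9.27 in LI, 15 in AA, 5.01 in AI and 6.10 in saline, and Birc5 had 149 CPM in LA, 30.1 in LI, 39.3 in AA, 18.7 in AI and 11.3 in saline. Smc4 was the exception, at 471 CPM in LA, 510 in LI, 400 in AA, 354 in AI and 345 in saline, and Racgap1 was flatter than the rest, at 66.2 CPM in LA, 39.8 in LI, 49.6 in AA, 29.5 in AI and 27.9 in saline. Outside the G2/M-high cells, T cell-like cells had 393 CPM of Smc4 and 27.4 CPM of Racgap1. 39 of 44 replication genes were also higher in LA than in LI and 0 lower (3.29-fold), with 30 of 33 further mitotic genes higher and 0 lower, and 7 of 18 transcription factors higher and 1 lower. The T cell-like members were also set beside the apoptotic and saline libraries. 40 of 44 were higher in LA than in AA (background 13.6%; 2.57-fold, 2.45 to 2.69) and 16 of 37 in LI than in AI (3.59%; 1.67-fold, 1.60 to 1.74). Against the shared saline library, 42 of 43 were higher in LA (12.4%; 5.33-fold, 5.01 to 5.67), 17 of 33 in LI (4.17%; 1.86-fold), 21 of 30 in AA (2.5%; 2.08-fold), and 0 of 31 higher or lower in AI (0.992% and 1.5%; 1.11-fold).

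The T cell-like difference varied among the clusters. Without the G2/M-high cells of each library, LA over LI was 1.51-fold (1.42 to 1.61) for all members and 2.32-fold (2.02 to 2.66) for the core. In the cluster led by Lef1 and Trac, the largest in LI, AA, AI and saline, 9 of 42 LA cells and 2 of 223 LI cells were G2/M-high, and the sum was 8192 CPM in LA, 1574 in LI, 937 in AA, 998 in AI and 779 in saline. In the Cd8b1 cluster, the largest in LA, the sum was 1125 CPM in LA, 1037 in LI, 890 in AA, 884 in AI and 812 in saline. The Foxp3 cluster, of regulatory T cell-like cells, had 8121 CPM in LA, 3673 in LI, 1149 in AA, 3164 in AI and 3159 in saline. The cluster led by Cxcr6 and Trdc ran the other way, with 1967 CPM in LA and 2715 in LI, 0.725-fold (0.651 to 0.805). LA was thus above LI in the Lef1 and Foxp3 clusters, close to it in the Cd8b1 cluster and below it in the Cxcr6 cluster. The Foxp3 cluster had 22 cells in LA, 69 in LI and 19 in AA, and the Cxcr6 cluster had 28 in LA and 99 in LI. In both clusters the LA cells were fewer than the minimum set for a contrast of classes. The interval of the Cxcr6 cluster covers counting error only, so its direction rests on few LA cells. Single cells weighed on the sums: the cell with the most member UMIs held 19.5% of them in LA, 8.64% in LI, 32.0% in AA, 7.40% in AI and 23.6% in saline. For AA over AI, 25 of 34 measured members were higher and 0 lower (background 1.6% and 1.2%), at 1.87-fold (1.77 to 1.97), and this was 1.39 without the top cell of each library. In AA that difference stood in the cluster led by Cxcr6 and Trdc, with 5802 CPM in AA and 856 in AI, where the top cell lay. The G2/M-high LA cells had CD8 T cell markers at 5250 CPM, against 7276 in the other LA cells, and CD4 T cell markers at 4319 against 5617, with none of either list at 0.

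B cell-like cells went the other way. G2/M-high cells were 1 of 272 in LA (0.368%, interval 0.00931 to 2.03), 34 of 1332 in LI (2.55%, 1.77 to 3.55), 1.06% in AA, 1.27% in AI and 1.84% in saline. 0 of 39 measured members were higher in LA than in LI and 22 lower (background 1.3% and 6.68%), with 597 CPM in LA, 1180 in LI, 897 in AA, 1051 in AI and 977 in saline, 0.506-fold (0.469 to 0.545), and a median of -0.61 over members against -0.14 over all genes. The core members gave 0.302-fold, and without the G2/M-high cells the 46 members gave 0.910-fold (0.841 to 0.985). The share intervals of LA and LI overlap. Top2a had 9.66 CPM in LA, 66.3 in LI, 32.3 in AA, 49.8 in AI and 58.5 in saline, and the kinetochore protein Cenpf 0.743 CPM in LA, 20.8 in LI, 26.5 in AA, 25.2 in AI and 12.8 in saline. Smc4, by contrast, had 98.9 CPM in LA, 130 in LI, 99.5 in AA, 101 in AI and 99.6 in saline. LA was the highest library for none of the 46, a count given without a share over all genes. Set beside AA, 0 of 24 members were higher and 7 lower in LA (background 1.36% and 3.38%; 0.665-fold). Against saline, 0 of 28 were higher and 13 lower in LA (1.73% and 5.99%; 0.611-fold), and 3 of 45 were higher in LI (1.62%; 1.21-fold). A cluster led by interferon-response genes, which carried B cell markers but stayed unnamed, held 219 of its 480 cells in LA and was not counted here; its members summed to 511 CPM in LA, 663 in LI, 3386 in AA (23 cells), 601 in AI and 514 in saline. For AA over AI, 0 of 43 members were higher and 1 lower (background 0.148% each way), at 0.854-fold (0.813 to 0.895).

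Among the small classes, NK cell-like cells were G2/M-high in 4 of 34 cells in LA (11.8%, interval 3.30 to 27.5), 7 of 134 in LI (5.22%), 1 of 83 in AA (1.20%), 4 of 161 in AI (2.48%) and 4 of 147 in saline (2.72%). Over 10 random thinnings the LI share ran from 1.49 to 4.48%, so the 5.22% lies above all of them. The saline share ran from 2.04 to 4.76% and the LA share from 11.8 to 14.7%. 24 of 24 measured members were higher in LA than in LI and 0 lower (background 11.6% and 18.7%), at 4.11-fold (3.77 to 4.49), or 2.2-fold with each cell thinned, and 1 cell held 34.1% of the members' UMIs in LA and 34.5% in LI. The 4 LA cells also had B cell markers at 1747 CPM, against 225 CPM in the other LA NK cell-like cells. The part of such mixed cells in this value was not tested. pDC-like cells had 0 of 40 in LA, which allows up to 7.50%, 4 of 119 in LI (3.36%), 0 of 68 in AA, which allows up to 4.41%, 0.820% in AI and 0.806% in saline, and LA over LI was 0.510-fold (0.422 to 0.613), with 0 of 8 members higher and 3 lower (background 6.32% and 12.1%). Platelet- or megakaryocyte-like cells, 15 to 49 per library, were G2/M-high in 33.3% of cells in LA, 48.6% in LI, 29.4% in AA, 23.8% in AI and 30.6% in saline. Their cluster was named on 5 markers, 71.4% of that list. Its leading genes were Pf4, Angpt1, Cpa3, Scin, Gzmb, Itga2b, Adgrg1, Nrgn, Sox4 and Ppbp, most of them outside the list. The name therefore does not show that these cells were platelets. The unnamed cluster 17, which carried 11 of 12 cDC1 markers along with Cxcl9, had 12 of 40 cells in LA (30%), 7.30% in LI, 13.9% in AA, 7.69% in AI and 22.5% in saline, with 7 of 11 members higher in LA than in LI and 0 lower (background 17.7% and 15.6%; 1.66-fold). In that cluster saline was the highest library for 23 of the 46 members and LA for 17, counts given without a share over all genes. The summed level was 0.901-fold (0.793 to 1.02) for LA over saline.

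Genes that followed the members differed by cell type. Among erythroid-like cells the 10 non-members with the highest ratio of G2/M-high to other cells of the class included the haemoglobin genes Hbb-bs (1348 against 93.4 CPM), Hbb-bt (716 against 61.2), Hba-a1 (1426 against 145) and Hba-a2 (305 against 37.4), the anion exchanger Slc4a1, and the mitotic genes Prc1 (163 against 66.1) and Kif14. In cDC2-like cells the same measure was led by replication-dependent histones such as Hist1h1b (1679 against 42.3), with Pclaf, a PCNA partner (1025 against 27.2), Prc1 (301 against 3.92), Knl1 (263 against 3.72) and Stmn1 (1687 against 73.0), and in T cell-like cells by Hist1h2ae (1335 against 21.7), Kif15 (188 against 2.18) and Prc1 (255 against 2.83). Prc1, which bundles microtubules of the central spindle, stood in all 3 lists. These cells were chosen by the core members, so the lists describe what lay in the same cells, over all 5 libraries.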

How the data were processed

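The authors deposited a gene-by-barcode matrix of UMI counts for each of the 5 libraries, not normalized. Per the submitters' processing notes these come from Cell Ranger 4.0 and mm10; the steps between are not given in the sources used here. Per the labels' protocols the chemistry was 10x 3′. The deposited counts held 12742889 UMIs in LA, 32641733 in LI, 16049698 in AA, 24206160 in AI and 18125660 in saline. The AA matrix held 2491 barcodes and the others 6794880 each.

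Barcodes with at least 1000 UMIs, 500 genes and at most 10% mitochondrial UMIs were kept. Scrublet in scanpy 1.11.5, with a doublet rate of 0.8% per 1000 cells, removed 0.0843% of cells in LA, 0.136% in LI, 0.189% in AA, 1.83% in AI and 0.276% in saline; where it marked so few, doublets may remain. Clustering used 2000 variable genes without 303 cell cycle genes, 30 principal components, 15 neighbours and Leiden resolution 1, and gave 30 clusters. A cluster was named from 19 marker lists when at least 3 markers and 25% of a list were at log2 ratio 1 or more and in 10% of its cells, and 25 clusters were named. Cell type names are rebuilt here and may differ from the authors'.

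Levels are UMIs summed per class and library in CPM. A member or gene was measured with at least 20 UMIs in both sums, and its ratio used CPM + 10; printed folds of single members use no pseudocount. Contrasts needed 30 cells and 50000 UMIs per class and library. Fold intervals are exact conditional Poisson, level intervals exact Poisson and share intervals Clopper-Pearson (95%), and the limit for a count of 0 is 3 counts; they cover counting error only. No test was run, since a group is a single library. On counts simulated from the 9501 genes of the cDC2-like LA over LI comparison, 74.7% of 2-fold and 100% of 4-fold changed genes and 0.0753% of unchanged genes passed 1.5-fold. With 1 library per group the simulation could not include variation between libraries. The 0.0753% is therefore not a rate of false passes between libraries.

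The members and lists were chosen with earlier results of these data known. Members named are the 2 with the most UMIs in each role group and, with at least 50 UMIs, the 5 highest and 5 lowest ratios of both allogeneic to isogeneic comparisons in erythroid-like and cDC2-like cells. Other members printed, and the values of members in other classes, were added after their values were seen; non-members are the 10 with the highest ratio of G2/M-high to other cells of a class, given for erythroid-like cells by rule and for 2 more classes after their values were seen. Alternatives numbered 20 and covered clustering, doublets, cell filters, thinning, scaling, pseudocount and member choice. Software was Python 3.11.15, numpy 2.4.6, scipy 1.17.1, pandas 2.3.3, scikit-learn 1.9.0, igraph 0.11.9 and matplotlib 3.10.9.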

Additional observations from a re-analysis of the deposited data

Results flagged for a closer look

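The members' summed level moved in opposite directions between LA and LI in different classes. LA over LI was 2.87-fold in T cell-like, 1.79-fold in cDC2-like, 1.77-fold in cDC1-like and 4.11-fold in NK cell-like cells, but 0.506-fold in B cell-like and 0.510-fold in pDC-like cells. Each class has 1 library per group, so the difference between classes was not tested. NK cell-like cells also had 0.754-fold for AA over AI, below 1 where LA over LI was above 1, and this difference was not tested; the AA over AI value was 1.01 with doublets kept and 0.371 with the core members.

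Barcodes with under 100 UMIs, which enter no comparison, also carried the members. Their summed level there was 2765 CPM in LA, 3199 in LI, 1733 in AI and 2190 in saline; the AA matrix holds no such barcodes. All 46 members had a UMI in them. The core members had 1399 CPM in these barcodes in LA, 1630 in LI, 782 in AI and 1140 in saline, whereas pDC-like cells had 69.8 CPM in LA, 265 in LI, 106 in AI and 80.8 in saline.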

How the results depend on the processing

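Of 342 values under the 20 alternatives, 233 stayed within the counting interval or 1.5 times the count, 104 moved outside it and 5 changed direction; the causes were not tested. No paired analysis was possible because each group has 1 library, and for the same reason no replicate could be left out. Depth limits single members in NK cell-like and pDC-like cells and all values of LA, which has the fewest cells.

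The 5 reversals were all in AA over AI near 1: B cell-like 1.03 at Leiden resolution 2 and 1.09 without the 2% deepest cells, NK cell-like 1.01 with doublets kept, and erythroid-like 0.979 with core members and 0.987 without the 2 members with most UMIs. In fold values for LA over LI, Leiden resolution 2 gave 0.597 in B cell-like cells. Clustering with cycle genes kept gave 1.32 in cDC2-like, 3.1 in T cell-like, 2.77 in NK cell-like and 0.646 in B cell-like cells. Core members gave 1.99 in cDC2-like, 2.05 in cDC1-like, 4.14 in T cell-like, 7.34 in NK cell-like, 0.302 in B cell-like and 1.06 in erythroid-like cells. Cells thinned to 1000 UMIs gave 1.64, 2.21, 1.67, 2.20, 0.694 and 1.15 in that order of classes. Without the 2 members with most UMIs the values were 2.01 in cDC2-like, 1.95 in cDC1-like, 2.71 in T cell-like, 5.03 in NK cell-like and 1.11 in erythroid-like cells. Median-ratio scaling gave 3.07 in T cell-like, 0.557 in B cell-like and 1.08 in erythroid-like cells, at most 5% mitochondrial UMIs gave 1.07 in erythroid-like cells, and leaving out the 2% deepest cells gave 2.25 in T cell-like and 1.22 in erythroid-like cells. Without the cell with the most member UMIs in each library, an alternative chosen after seeing the data, the values were 1.74 in cDC2-like, 1.69 in cDC1-like, 2.75 in T cell-like and 4.61 in NK cell-like cells.

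For AA over AI, Leiden resolution 2 gave 0.981 in NK cell-like cells and cycle genes kept gave 0.977 in NK cell-like and 0.913 in B cell-like cells. Doublets kept gave 0.955 and at least 1500 UMIs 0.778 in B cell-like cells. At most 5% mitochondrial UMIs gave 1.99 in T cell-like, 0.646 in B cell-like and 1.01 in erythroid-like cells. Core members gave 2.99 in T cell-like, 1.57 in cDC1-like, 0.754 in B cell-like and 0.371 in NK cell-like cells. Thinned cells gave 1.33 in cDC2-like, 1.28 in cDC1-like, 1.32 in T cell-like, 0.974 in B cell-like and 0.920 in NK cell-like cells. Without the 2% deepest cells the values were 1.21 in cDC2-like, 2.17 in cDC1-like, 2.02 in T cell-like and 1.19 in erythroid-like cells, and without the top cell they were 1.39 in T cell-like, 0.741 in B cell-like and 0.941 in NK cell-like cells.

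Counts of members past the size rule for LA over LI were, in cDC2-like cells, 6 higher with cycle genes kept, 10 with cells thinned and 10 at 2-fold. In T cell-like cells 3 were higher with cells thinned. In B cell-like cells 14 were lower at Leiden resolution 2, 10 with cycle genes kept, 3 with cells thinned, 4 at 2-fold, 35 with a pseudocount of 1 CPM and 12 with median-ratio scaling. The shares over all genes printed above hold for the main settings, and none is given for these alternatives. The share over all genes can change with the setting too, so these counts show only how far the member count moved.

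Shares of G2/M-high cells depended on the definition. With cycle genes kept they were 7.26% in LA and 4.62% in LI cDC2-like cells, without the cluster led by genes such as Nusap1 and Pclaf described above. With 1 core member they were 35.3% in LA and 23.7% in LI cDC2-like, 25.5% in LI cDC1-like, 20.1% in LA and 18.6% in LI T cell-like, 38.2% in LA and 20.9% in LI NK cell-like, 11.4% in LA and 17.3% in LI B cell-like, and 98.0% in LA and 95.9% in LI erythroid-like cells. With 3 core members they were 5.73% in LI cDC1-like, 1.49% in LI NK cell-like, 0% in LA and 1.05% in LI B cell-like, and 71.4% in LA and 64.2% in LI erythroid-like cells. With 3 of all 46 members they were 4.60% in LI T cell-like, and 98.0% in LA and 91.5% in LI erythroid-like cells. Without thinning they were 46% in LA and 34.6% in LI cDC2-like, 81.2% in LA and 54.1% in LI cDC1-like, 24.8% in LA and 16.8% in LI T cell-like, 17.2% in LI NK cell-like, 9.93% in LA and 12.3% in LI B cell-like, and 100% in LA and 95.6% in LI erythroid-like cells. Thinned to 2000 UMIs they were 6.12% in LI T cell-like, 11.5% in LI NK cell-like, 5.74% in LI B cell-like, and 95.3% in LA and 96.8% in LI erythroid-like cells.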
